A study of Mus musculus with 2 samples.

Results

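Matrix metalloproteinases (MMPs) and their tissue inhibitors (TIMPs) were examined through 10 genes taken by symbol from the 43346 Ensembl genes of the tables. They comprised 5 genes of secreted MMPs (Mmp2, Mmp7, Mmp9, Mmp11 and Mmp28), 2 genes of membrane-anchored MMPs (Mmp14 and Mmp15) and 3 inhibitor genes (Timp1, Timp2 and Timp3). The RNA came from the sigmoid colon, the part of the large bowel next to the rectum, of 1 female mouse of the inbred strain C57BL/6J at an age of 10 weeks. The labels give no treatment and no engineered allele. This animal gave 2 technical libraries of polyadenylated RNA, numbered here as in the labels, and library 2 was made in 2015. Both belong to 1 group, so each ± beside a TPM is an SD over n = 2 technical libraries, each ± beside a log2 ratio is an SE of counting alone, and no test reaches beyond this animal. The tissue was measured in bulk, so fewer cells of a type and less RNA per cell cannot be told apart.

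MMPs are zinc-dependent proteases that cut collagens, basement membrane and many signalling proteins outside the cell. They are made as inactive proenzymes, in which a cysteine of the propeptide occupies the zinc, and they act once that propeptide has been cut away. TIMPs block the active enzyme by inserting their N-terminal cysteine at the zinc, and in the gut the balance of both is known for its part in matrix turnover, wound repair and inflammation.

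The coding sequence of the contact on each side is shown, because it is the feature by which the genes belong together. The sequences are of GENCODE M21 transcripts on assembly GRCm38, written 5′ to 3′ on the coding strand, and the exon is that of the transcript used. In the 7 MMP genes the capitals mark the codons of the 3 histidines that hold the catalytic zinc and of the glutamate beside the first of them.
Mmp2, chr8:92839279-92839311, plus strand, exon 8: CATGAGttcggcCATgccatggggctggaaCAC
Mmp9, chr2:164951133-164951165, plus strand, exon 8: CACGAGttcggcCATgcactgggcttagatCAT
Mmp7, chr9:7697614-7697646, plus strand, exon 5: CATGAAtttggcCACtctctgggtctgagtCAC
Mmp11, chr10:75926931-75926963, minus strand, exon 5: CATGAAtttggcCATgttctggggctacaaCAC
Mmp28, chr11:83444921-83444953, minus strand, exon 5: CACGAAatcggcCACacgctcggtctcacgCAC
Mmp14, chr14:54437627-54437659, plus strand, exon 5: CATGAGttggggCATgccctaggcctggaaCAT
Mmp15, chr8:95368585-95368617, plus strand, exon 5: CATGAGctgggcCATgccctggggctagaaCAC

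In the 3 TIMP genes the sequence starts at the first codon of the mature protein, and the capitals mark the codons of its residues 1 and 3, both cysteines.
Timp1, chrX:20871111-20871137, plus strand, exon 2: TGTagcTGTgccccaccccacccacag
Timp2, chr11:118354986-118355012, minus strand, exon 1: TGCagcTGCtccccggtgcacccgcaa
Timp3, chr10:86300923-86300949, plus strand, exon 1: TGCacaTGCtctcccagccatccccag

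The zinc sites encode the same residues at the capitals but differ in their bases. Mmp2 and Mmp15 were the most alike pair, with 29 of 33 bases identical (87.9%), and Mmp14 and Mmp28 the least alike, with 18 of 33 (54.5%). The membrane-anchored pair, Mmp14 and Mmp15, shared 27 of 33. The sites also differed in base composition: 9 of the 11 codons of the Mmp28 site ended in G or C, against 8 in Mmp2, 7 in Mmp15 and 4 in Mmp11. The GC content of the site was 63.6% in Mmp15 and Mmp28 and 48.5% in Mmp11. Over whole coding sequences it ran from 48.3% in Mmp7 to 61.7% in Mmp28, with Mmp15 at 60.2% and Timp3 at 55.5%. The search took the 4 zinc-site residues at this spacing, with a glycine at a fixed place before the last histidine. A coding sequence that encodes this pattern was found in 69 of 21901 protein-coding genes (0.315%). Of those, 23 carry an Mmp symbol and 33 an Adam or Adamts symbol, the latter being related zinc proteases.

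Both libraries stood apart from each other across the whole table. Expected counts summed to 25843064 and 20681574 in libraries 1 and 2. Mitochondrial genes took 24.1% of the counts in library 1 and 5.59% in library 2, and nuclear protein-coding genes took 31.3% and 75.3% of the TPM (a level corrected for transcript length and scaled to the same total in each library). Library 2 over library 1 in TPM therefore lay above the ratio of counts scaled by TMM (a scaling that treats most genes as unchanged), by 1.12 log2 at the median gene tested. The median log2 ratio over all genes tested was 0.12 on TMM-scaled counts, 1.24 as a ratio of TPM, and 0.38 with sizes from nuclear protein-coding counts. Markers of epithelium and smooth muscle were present in both libraries. All 6 epithelial markers summed to 1165 TPM in library 1 and 7155 in library 2, and 6 smooth muscle markers to 327 and 4791. Neither list can tell the sigmoid colon from other parts of the gut. The 4 squamous epithelial markers (Krt5, Krt13, Krt14 and Trp63), which would come from the anal end, summed to 0.04 and 1.27 TPM.

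Among the secreted enzymes, Mmp2 was the most abundant, and Mmp7 was close to the detection limit. Mmp2 (ENSMUSG00000031740.7, chr8:92827291-92853420, plus strand) encodes gelatinase A, which cuts denatured collagen and basement membrane collagen and is activated at the cell surface by the Mmp14 product with the help of Timp2. It was at 1.60 TPM in library 1 (110 counts) and 39.0 TPM in library 2 (1602 counts), a mean of 20.3 ± 26.4. Among 21461 nuclear protein-coding genes Mmp2 had a percentile of 56.8 in library 1 and 84.5 in library 2.

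Mmp9 (ENSMUSG00000017737.2, chr2:164940780-164955850, plus strand) encodes gelatinase B, the other gelatinase, which neutrophils store in granules and macrophages secrete. Its level was 0.58 TPM in library 1 (13 counts) and 1.54 TPM in library 2 (50 counts), a mean of 1.06 ± 0.679. The gelatinases thus differed widely in library 2, where Mmp2 stood far above Mmp9, and less in library 1. Of 9 neutrophil markers, Mpo was at 0 counts in both libraries, and Elane, Ngp, Ltf and Camp were at 0 in library 1 and at 1 or 2 in library 2. The 9 markers summed to 37.8 and 127 TPM, of which Ly6g gave 33.2 and 120 TPM, with S100a8 at 3.66 and 2.60, S100a9 at 0.77 and 3.74 and Cxcr2 at 0.15 and 0.34 TPM. Of the 6 macrophage markers, which summed to 27.6 and 187 TPM, C1qa was at 1.56 and 66.9 TPM and C1qb at 0.55 and 66.7 TPM, whereas Mrc1, the highest of them in library 1, was at 18.9 and 9.62 TPM. The part of either cell type in the Mmp9 level was not tested.

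Mmp7 (ENSMUSG00000018623.9, chr9:7692090-7699585, plus strand) encodes matrilysin, a small MMP that in mouse small intestine cuts the defensins of Paneth cells into their active form. It had 4 counts in library 1 and 6 in library 2, or 0.19 and 0.47 TPM. With so few counts the scaled ratio of the libraries, 1.11, had a 95% exact interval from 0.264 to 5.37, and a difference was not detectable at this depth. Of 6 Paneth cell markers, the defensin genes Defa17 and Defa30 had 0 counts in both libraries, Defa24 had 0 and 1, and the list summed to 71.3 and 259 TPM through Ang4 (62.8 and 237 TPM) and Lyz1 (7.96 and 16.2 TPM), with Pla2g2a at 0.49 and 5.91 TPM.

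Mmp11 (ENSMUSG00000000901.11, chr10:75923222-75936496, minus strand) encodes stromelysin 3, an enzyme of stromal cells that furin activates inside the cell. It was at 0.34 TPM in library 1 (9 counts) and 4.63 TPM in library 2 (127 counts). Mmp28 (ENSMUSG00000020682.13, chr11:83440768-83463071, minus strand) encodes epilysin, another enzyme with a furin cleavage site, and it was at 0.52 TPM (38 counts) and 7.18 TPM (307 counts). Both were under 1 TPM in library 1 and well above it in library 2.

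The membrane-anchored MMPs made up 57.5% of the summed MMP TPM in library 1 and 67.2% in library 2. Mmp14 (ENSMUSG00000000957.8, chr14:54431612-54445364, plus strand) encodes MT1-MMP, a transmembrane collagenase that also activates pro-MMP2. It was at 4.21 TPM in library 1 (244 counts) and 54.95 TPM in library 2 (1909 counts), and was the MMP with the highest level in each. Mmp15 (ENSMUSG00000031790.7, chr8:95352268-95375080, plus strand) encodes MT2-MMP, its close relative. Its level was 0.16 TPM in library 1 (16 counts) and 53.1 TPM in library 2 (3178 counts), so it ranked 9th of the 10 genes in library 1 and 3rd in library 2. No other of the 10 genes differed as widely between the libraries.

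The inhibitors were led by Timp2 and Timp3. Timp3 (ENSMUSG00000020044.9, chr10:86300372-86349506, plus strand) encodes the inhibitor that stays bound to the matrix and also blocks ADAM17 and several ADAMTS proteases. It was at 55.6 TPM in library 1 (6058 counts) and 44.2 TPM in library 2 (2881 counts), a mean of 49.9 ± 8.03, and its percentile was 94.7 and 86.2. It was the only one of the 10 with a higher TPM in library 1.

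Timp2 (ENSMUSG00000017466.5, chr11:118301069-118355740, minus strand) encodes a broad inhibitor that is also needed for the activation of pro-MMP2 by MT1-MMP. It was at 23.0 TPM (1949 counts) and 65.8 TPM (3115 counts), a mean of 44.4 ± 30.3, with a percentile of 87.3 and 90.8. Timp1 (ENSMUSG00000001131.7, chrX:20870166-20874735, plus strand) encodes the soluble inhibitor that binds pro-MMP9 and is known to rise in inflamed and fibrotic tissue. It was near the detection limit in library 1, at 0.13 TPM with 2 counts, and at 3.13 TPM with 30 counts in library 2.

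**Figure D1:**
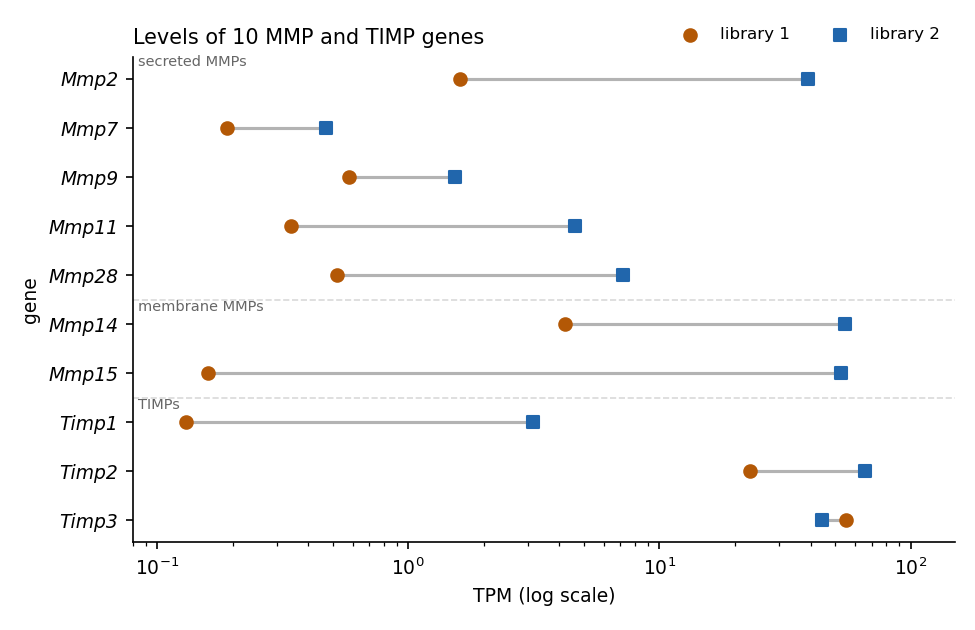
Level of each gene in TPM (horizontal log axis) in library 1 (circles) and library 2 (squares), with a line joining the values of a gene. The values of Timp3 lie closest together (55.6 and 44.2 TPM) and those of Mmp15 farthest apart (0.16 and 53.1 TPM), and Timp3 is the only gene with its circle on the right.

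By mean TPM the order was Timp3, Timp2, Mmp14, Mmp15, Mmp2, Mmp28, Mmp11, Timp1, Mmp9 and Mmp7. The ranges over both libraries overlapped for 8 of the 9 pairs of neighbours in this order. Only Mmp9 and Mmp7 did not overlap, and their means lay 1.08 times the larger SD apart. At 1 TPM or more there were 4 of the 10 genes in library 1 (Timp3, Timp2, Mmp14 and Mmp2) and 9 in library 2, all but Mmp7.

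Within the family, inhibitors made up most of the RNA in library 1, and enzymes and inhibitors shared it in library 2. Shares of the summed TPM of the 10 genes do not depend on how much of a library was mitochondrial RNA. Timp3 took 64.4% of the family in library 1 and 16.1% in library 2. Timp2 took similar shares, 26.6% and 24.03%. Mmp14 took 4.88% and 20.1%, Mmp2 took 1.85% and 14.2%, and Mmp15 took 0.185% and 19.4%. Among the enzymes alone, Mmp14 took 55.4% and 34.2%, Mmp15 took 2.11% and 33.0%, and Mmp2 took 21.1% and 24.2%, so the share of Mmp2 among MMPs was the most alike of these.

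The 7 MMPs summed to 7.60 TPM in library 1 and 161 TPM in library 2, and the 3 TIMPs to 78.7 and 113 TPM. Scaled to nuclear protein-coding TPM, the MMP sum was 24.3 and 213, whereas the TIMP sum was 251 and 150.2, so the libraries changed order for the inhibitors with this scaling. Summed TIMP over summed MMP was 10.4 in library 1 and 0.704 in library 2. Without Timp3 the ratio was 3.04 and 0.429, and without Mmp15 it was 10.6 and 1.05. The TIMP sum was thus the larger in library 1 and the MMP sum in library 2, both from the same mouse.

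**Figure D2:**
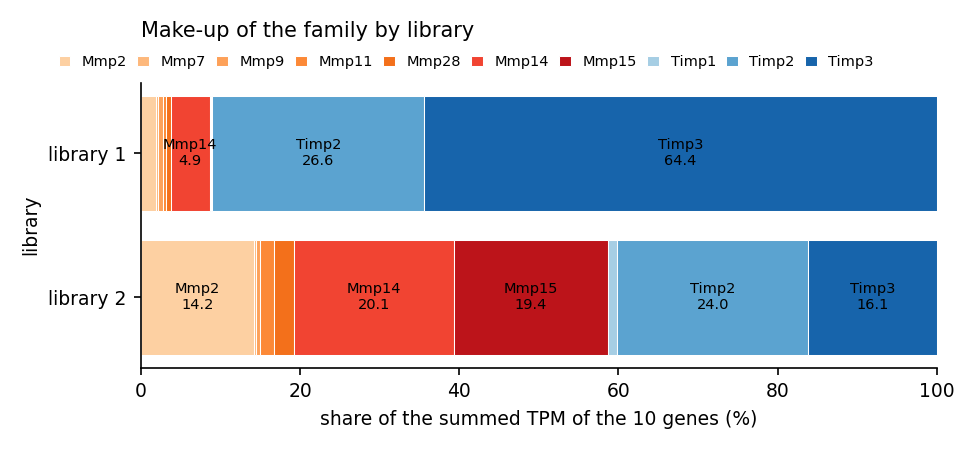
Share of each gene in the summed TPM of the 10 genes, in percent, in library 1 (upper bar) and library 2 (lower bar), with MMPs in orange to red and TIMPs in blue. TIMPs fill 91.2% of the bar of library 1 and 41.3% of that of library 2, and Mmp15 is visible only in library 2.

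The libraries were compared gene by gene with a two-sided exact binomial test of rounded expected counts, given TMM library sizes. Benjamini-Hochberg adjustment ran over the 15705 genes whose expected counts averaged 10 or more. Calls needed both a 2-fold ratio and an adjusted p below 0.05, and each SE covers counting only. The test describes these libraries and no condition. Of the 9 genes tested, 7 were higher in library 2, 1 was lower and 1 was not called, and Mmp7 had too few counts to enter. Over all genes tested, 36.9% were called higher and 28.1% lower, or 65.0% in either direction. Mmp11 and Timp1 were under 10 counts in library 1 and passed the filter only through their counts in library 2. The filter thus favoured a higher value in library 2 for them, and their calls support nothing. The same holds for Mmp17, Mmp23, Mmp24, Plaur, Adam8, Eln and Pi16, which are named below.

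Mmp15 had the widest ratio, a log2 of 7.16 ± 0.36, or 143-fold. It had only 16 counts in library 1, and the 95% exact interval of its scaled ratio ran from 90.7 to 258. Mmp2 was 10.8-fold higher in library 2 (log2 3.43 ± 0.14) and Mmp11 9.97-fold (log2 3.32 ± 0.49). Mmp28 and Mmp14 were alike in size, at 5.93-fold (log2 2.57 ± 0.25) and 5.80-fold (log2 2.54 ± 0.10). Mmp9 was 2.78-fold higher (log2 1.47 ± 0.44, adjusted p = 0.000524 in the exact binomial test). Timp1 was 9.06-fold higher (log2 3.18 ± 0.95, adjusted p = 1.54e-05 in the exact binomial test), and the 95% exact interval of its scaled ratio ran from 2.83 to 96.2.

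The abundant inhibitors did not follow. Timp3 was 2.83-fold lower in library 2 (log2 -1.50 ± 0.03). Timp2 was 1.19-fold higher (log2 0.25 ± 0.04, adjusted p = 3.88e-09 in the exact binomial test) and missed the 2-fold threshold. The direction of all 9 ratios was the same with DESeq2 size factors, with sizes from nuclear protein-coding counts and as a ratio of TPM, though in TPM, which carries the shift of all genes given above, Timp3 was 1.26-fold lower and Timp2 2.86-fold higher.

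Over the whole table the ratios followed the GC content of the transcripts, and those of the members tested did so too, with a limit given below. GC content ran from 46.8% in Timp3 to 59.6% in Mmp15, with Timp2 at 53.8%, Mmp14 and Mmp2 at 55.3% and Mmp28 at 58.4%. As a description, the log2 ratio and GC content had a Pearson r of 0.82 and a Spearman rho of 0.77 over the 9 members, which share both libraries. Both values over 15658 genes tested were 0.84 and 0.90. Over 20 genes, the members with the other MMPs and inhibitors tested, they were 0.90 and 0.92. Mmp11 and Timp1 are among the 9 and the 20, and Mmp17, Mmp23 and Mmp24 are among the 20. These genes passed the filter only through library 2, which favoured a high ratio for them. The part of this selection in the r and rho values was not tested.

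**Figure D3:**
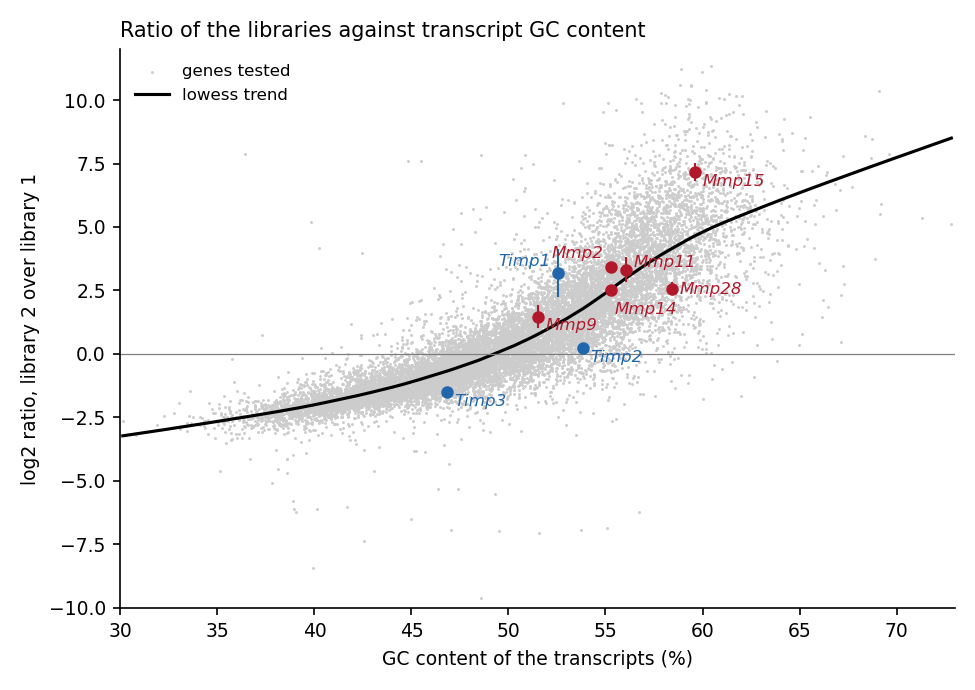
Log2 ratio of library 2 over library 1 (vertical axis) against the GC content of the transcripts in percent (horizontal axis) for the genes tested (grey), with the lowess trend (black line) and the 9 members named (MMPs red, TIMPs blue, bars 1 SE of counting). Mmp14 and Mmp11 lie close to the line, Mmp15, Timp1 and Mmp2 above it, and Mmp28 and Timp2 below it.

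Against genes of the same GC content, the family looked different. The trend alone had a log2 ratio of 4.64 at the GC content of Mmp15, 4.15 at that of Mmp28, 2.55 at that of Mmp14 and -0.68 at that of Timp3. With this trend taken off, 2 of the 9 members were higher in library 2 and 2 were lower, where 12.4% of all genes were called higher and 11.0% lower (23.3% in either direction). Mmp15 was still 5.73-fold higher (log2 2.52), and Timp1, tested only through its 30 counts in library 2, was 3.95-fold higher (log2 1.98). Mmp28 turned to lower (log2 -1.58) and Timp2 to 2.89-fold lower (log2 -1.53). The other 5 were not called: Mmp2 was at a log2 of 0.87, Mmp9 at 0.70, Mmp11 at 0.33, Mmp14 at -0.012 and Timp3 at -0.82. The median of the 9 members was 2.57 before and 0.33 after, and that of all genes 0.12 and -0.0077. Both medians of the members include Mmp11 and Timp1, tested only through library 2, and the 0.33 is the value of Mmp11 itself. With the levels of library 1 shifted by this trend, summed TIMP over summed MMP was 2.22 in library 1 and 0.704 in library 2, a 3.16-fold difference against 14.7-fold as deposited.

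Transcript length bore on fewer of the calls. With the length trend taken off, Mmp9 (log2 0.76) and Timp1 (log2 1.62) were no longer called, and the other 7 kept their calls, so that 5 were higher and 1 lower. Over all genes 31.3% were then called higher and 34.7% lower, or 66.1% in either direction. With both trends taken off, Mmp15 was the only gene called higher, at a log2 of 2.70, and Mmp28 and Timp2 were lower, where 10.5% of all genes were called higher and 11.5% lower (22.1% in either direction).

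**Figure D4:**
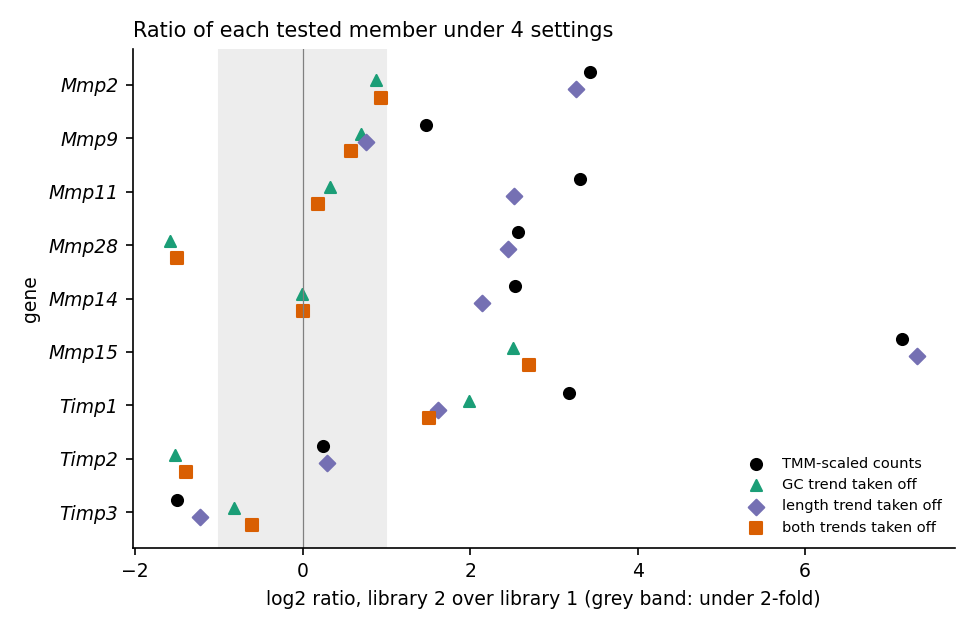
Log2 ratio of library 2 over library 1 (horizontal axis) of the 9 genes tested, on TMM-scaled counts (circles) and with the GC trend (triangles), the length trend (diamonds) or both trends (squares) taken off, with the band under 2-fold in grey. Mmp15 is outside the band on the right under all 4 settings, and Mmp28 crosses from right to left when the GC trend is taken off.

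At the level of transcripts, the abundant members had 1 main form in both libraries. Mmp2, Mmp14 and Mmp15 have 1 annotated transcript each. Timp3 came from ENSMUST00000020234.9 at 99.5% in library 1 and 99.4% in library 2. Timp2 came from ENSMUST00000017610.5 at 100% and 92.1%, with ENSMUST00000155707.2 at 0 and 7.91%. Among the less abundant genes, Mmp9 and Mmp11 were chosen after their values were seen. All 13 Mmp9 counts of library 1 were assigned to the non-coding processed transcript ENSMUST00000144917.1, which took 100% of the gene's TPM there and 36.1% in library 2. The coding transcript ENSMUST00000017881.2 took 63.9% in library 2, from 42.4 expected counts. The level of Mmp9 in library 1 therefore rests on no count given to its coding form. For Mmp11, 51.1% of the TPM in library 1 came from 0.62 expected counts on ENSMUST00000132869.1. That transcript is annotated for nonsense-mediated decay and was at 0 in library 2.

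Several members share their span with another gene, and no source used here gives the strand setting of the counting. Reads of opposite strands may therefore not have been told apart. The overlapping gene had few counts beside Timp3, which lies inside Syn3 (6 and 39 counts, opposite strand), and beside Timp2, which holds Cep295nl (3 and 4 counts, same strand). Timp1 lies inside the synapsin gene Syn1 on the opposite strand, and Syn1 had more counts (70 in library 1 and 83 in library 2) than Timp1 itself. Mmp11 overlaps in part Chchd10, a gene of a mitochondrial protein, on the opposite strand, which had 1 count in library 1 and 1792 in library 2 (0.06 and 164 TPM). The part of Syn1 reads in the Timp1 value and of Chchd10 reads in the Mmp11 value was not tested. Mmp28 overlaps 1700020L24Rik (0 and 3 counts) and Mmp7 overlaps AV064505 (0 counts in both), each on the opposite strand.

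The other 16 MMP genes were mostly low, and together they held 10.2 TPM in library 1 and 27.4 TPM in library 2. Of the 9 with enough counts, 3 were higher in library 2, 3 lower and 3 not called. Over all genes tested, 36.9% were called higher and 28.1% lower. The median log2 ratio of the 9 was -0.67, which is 0.49 as a ratio of TPM and 0.09 with the GC trend taken off. The collagenase gene Mmp13 was at 3.72 TPM (223 counts) and 2.68 TPM (96 counts) and was lower in library 2 (log2 -1.64 ± 0.18). Mmp12, the macrophage elastase (44 and 18 counts), and Mmp16, a membrane-anchored MMP (54 and 25 counts), were lower too, at -1.70 and -1.52, although Mmp16 was at 0.53 and 0.71 TPM. Mmp17, anchored by a lipid (6 and 255 counts), Mmp23 (5 and 145 counts) and Mmp24 (0 and 22 counts) were higher. They passed the filter only through library 2, so these calls support nothing. Mmp19 was not called, at 2.26 and 4.87 TPM (log2 -0.06 ± 0.15), and neither were the stromelysin genes Mmp3 (42 and 32 counts) and Mmp10 (38 and 32 counts). Below 0.1 TPM in both libraries were Mmp1a, Mmp1b, Mmp8, Mmp20, Mmp21 and Mmp27. The neutrophil collagenase Mmp8 had 3 and 1 counts. With the GC trend taken off, 1 of the 9 (Mmp17) was called higher and none lower, against 12.4% and 11.0% of all genes.

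Other inhibitors were below Timp2 and Timp3. Timp4, the remaining member of the TIMP family, was at 0.71 TPM (21 counts) and 3.38 TPM (60 counts) and was higher in library 2 (log2 1.06 ± 0.36). It was no longer called with the length trend taken off (log2 -0.03), and was higher with the GC trend taken off (log2 1.51). Over all genes tested, 36.9% were called higher on scaled counts, 31.3% with the length trend and 12.4% with the GC trend taken off. Reck, a membrane-anchored inhibitor of several MMPs, was at 2.84 and 4.25 TPM and was not called (log2 -0.59 ± 0.12). A2m, a circulating trap for proteases, had 2 counts in each library.

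Genes that activate or induce MMPs included both abundant and rare members. Of 11, 10 were tested, 6 were higher in library 2, none was lower and 4 were not called. Among all genes tested, 36.9% were higher and 28.1% lower. The median log2 ratio of the 10 was 1.35. Bsg, the surface protein basigin that induces MMPs in neighbouring cells, was at 122 and 682 TPM (log2 1.35 ± 0.03). Furin, which cuts the propeptide of Mmp11, Mmp28, Mmp14 and Mmp15 products, was at 0.49 TPM (57 counts) and 33.1 TPM (1934 counts), with a log2 ratio of 4.64 ± 0.19. Its relative Pcsk7 was at 1.24 and 55.2 TPM (log2 4.31 ± 0.14). Plau, the urokinase that makes plasmin, was at 4.49 and 12.5 TPM and was not called (log2 0.31 ± 0.12). Plg, the gene of plasminogen, had 1 and 0 counts. With the GC trend taken off, 3 of the 10 were higher (Pcsk7, Plat and Plaur) and 1 was lower (Bsg). Over all genes these shares were 12.4% and 11.0%. Plaur, at 9 and 108 counts, passed the filter only through library 2. In this fit Furin was at a log2 of 0.04, Pcsk7 at 1.37 and Bsg at -1.40.

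Other metalloproteinases exceeded the MMPs in level. The 19 genes summed to 302 TPM in library 1 and 587 TPM in library 2. Of these, 18 were tested, with 7 higher, 4 lower and 7 not called, against 36.9% of all genes higher and 28.1% lower. The meprins are proteases of the brush border: Mep1a was at 99.3 and 224 TPM (log2 0.00 ± 0.02) and Mep1b at 48.4 and 86.7 TPM (log2 -0.33 ± 0.04), neither called. The sheddase Adam10 was at 71.8 and 43.4 TPM and was lower in library 2 (log2 -1.91 ± 0.03). Adam15 was at 4.83 and 86.1 TPM and was higher (log2 4.73 ± 0.19). The other genes called lower on scaled counts were Adam9, at 41.3 TPM in both libraries, Adam17, a target of Timp3, at 19.2 and 20.9 TPM, and Adamts5, at 1.67 and 1.28 TPM. Adam28 was below 0.1 TPM in both. With the GC trend taken off, 1 was higher (Adam8), 3 were lower (Adam19, Adamts4 and Adamts15) and 14 were not called, Adam10 (-0.24) and Adam15 (0.26) among the last. Over all genes, 12.4% were higher and 11.0% lower in this fit. Adam8, at 0 and 106 counts, passed the filter only through library 2.

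Among 5 binding partners, Cd63, a surface receptor of Timp1, was at 254 and 508 TPM and was not called (log2 -0.12 ± 0.03). Lrp1, the receptor that takes up MMPs and TIMPs, was at 0.76 TPM (53 counts) and 75.4 TPM (6122 counts), a log2 ratio of 6.41 ± 0.20, which was 2.34 with the GC trend taken off. Cd44, which holds MMPs at the cell surface, was at 20.2 TPM in both and was lower on scaled counts (log2 -1.46 ± 0.05). Thbs1 was at 15.6 and 31.3 TPM and Thbs2 at 2.98 and 6.86 TPM, neither called. Cd44 was no longer called (-0.30) and Cd63 was lower (-1.62) with the GC trend taken off.

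Of 12 substrates of the matrix, 5 were higher (Col1a1, Col4a1, Col4a2, Fn1 and Eln), 3 lower (Dcn, Vcan and Nid1) and 4 not called (Col1a2, Col3a1, Lamb1 and Lamc1). Their median log2 ratio was 0.85, and 36.9% of all genes tested were higher and 28.1% lower. With the GC trend taken off, 2 were higher (Fn1 and Eln), 5 lower (Col1a1, Col1a2, Col3a1, Col4a1 and Nid1) and 5 not called, with a median of -0.34. Over all genes, 12.4% were then higher and 11.0% lower. The fibrillar collagen gene Col3a1 was at 260.1 and 334 TPM (log2 -0.35 ± 0.01, not called) and the proteoglycan gene Dcn at 257 and 261 TPM (log2 -1.13 ± 0.02, lower). Fn1, the gene of fibronectin, was at 23.0 and 153 TPM (log2 1.98 ± 0.03, higher), and the collagen gene Col1a2 at 41.1 and 99.6 TPM (log2 0.31 ± 0.03, not called). Vcan was at 8.05 and 7.54 TPM and Nid1 at 21.4 and 24.1 TPM. Eln, the gene of elastin, had 0 counts in library 1 and 1040 in library 2, so it passed the filter only through library 2. Both Col3a1 and Dcn were far above every MMP and TIMP in each library.

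Markers of cell types of the colon wall also differed between the libraries. For the counts that follow, the shares over all genes tested were 36.9% higher and 28.1% lower. With the GC trend taken off, these shares were 12.4% and 11.0%. All 6 smooth muscle markers were higher in library 2, with a median log2 ratio of 2.79, and all but Myh11 were higher with the GC trend taken off (5 of 6, median 1.55). Actg2 was at 84.9 and 1207 TPM, Tagln at 73.6 and 1186, Acta2 at 65.7 and 1060 and Des at 6.49 and 522. Of 8 fibroblast markers, which summed to 488 and 723 TPM, 3 were higher (Pi16, Col1a1 and Col6a1), 2 lower (Dcn and Lum) and 3 not called (Pdgfra, Dpt and Col1a2), with a median log2 ratio of -0.10 on scaled counts and 0.96 as a ratio of TPM. After the GC trend was taken off, Pi16 was higher, Col1a1 (-2.68) and Col1a2 (-2.30) were lower, and the other 5 were not called. Pi16, at 2 and 193 counts, passed the filter only through library 2. Dpt was at 79.7 and 125 TPM and Lum at 79.2 and 54.5 TPM. Of 6 macrophage markers, 4 were higher (C1qa, C1qb, Csf1r and Cd68) and 1 was lower (Mrc1), with Adgre1 not called, and with the GC trend taken off C1qb, Csf1r and Cd68 were higher and none was lower. Of 5 endothelial markers (13.5 and 61.4 TPM), 3 were higher (Pecam1, Cdh5 and Vwf) and Kdr and Tek were not called, and with the GC trend taken off Pecam1 and Vwf were higher. Of 6 epithelial markers, 2 were higher (Krt8 and Krt19) 1 lower (Cdh17) and 3 not called (Epcam, Cdh1 and Krt20), and with the GC trend taken off Krt19 was higher and Epcam lower. The part of any cell type in the ratios of the 10 genes was not tested.

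**Figure D5:**
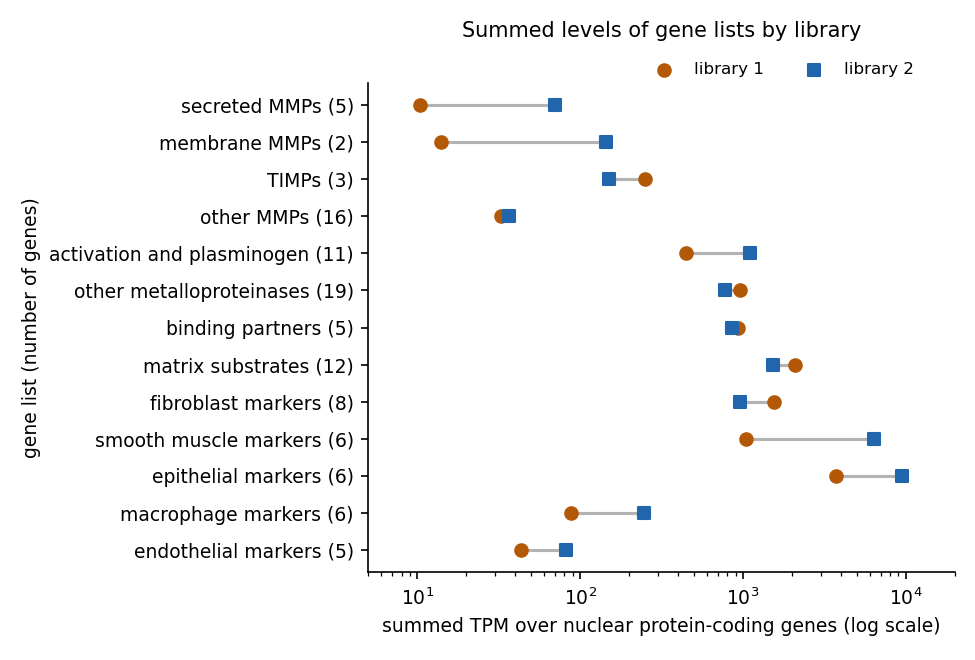
Summed TPM over nuclear protein-coding genes (horizontal log axis) of the member groups, the related genes and the cell type markers, in library 1 (circles) and library 2 (squares), with the number of genes in brackets. Both MMP groups and the smooth muscle markers lie well to the right in library 2. The other MMPs, the activation genes and the epithelial, macrophage and endothelial markers also lie to the right. The TIMPs lie to the left (251 in library 1 and 150.2 in library 2). So do the other metalloproteinases, binding partners, matrix substrates and fibroblast markers.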

How the data were processed

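The authors deposited a gene table and a transcript table for each library, on mm10 with GENCODE M4 per the text files deposited with them. Aligner, quantifier and strandedness were not given in the sources used here. Per the file headers, the tables hold expected counts (reads shared among transcripts by a model), the authors' TPM, and each transcript's percent share of its gene, as deposited. The 10 members had whole expected counts in both libraries.

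Coordinates, GC content and sequences came from GENCODE M21 on GRCm38, the same assembly as mm10. Symbols matched 42462 of 43346 genes. GC content, weighted by TPM over transcripts, was known for 99.7% of genes tested.

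With 1 library on each side edgeR's quasi-likelihood test has no residual degrees of freedom. Rounded counts were therefore tested by a two-sided exact binomial test given TMM sizes (edgeR 4.0.16, R 4.3.3, library 2 over library 1 1.35), with a prior count of 0.5 for ratios. The test was checked on simulated data with few changed genes and no trend with GC content or length. That check does not cover libraries that differ as widely as these. Lowess trends had a fraction of 0.2 (statsmodels 0.14.6, scipy 1.17.1, pandas 2.3.3, numpy 2.4.6, Python 3.11.15, figures with matplotlib 3.10.9). Alternatives included DESeq2 1.42.0 size factors. TPM ratios used a pseudocount of 0.01. Intervals cover counting error only. A count of 0 allows 3 counts, or 0.116 CPM in library 1 and 0.145 CPM in library 2.

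The members and lists were chosen with earlier results of these data known. Named were all members, genes overlapping them, the 4 highest genes by mean TPM of each list described, those below 0.1 TPM in both libraries, and those a count of 5 or fewer refers to, except some not reported here.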

Additional observations from a re-analysis of the deposited data

How the results depend on the processing

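The number of members higher in library 2 was 7 on TMM-scaled counts, 2 with the GC trend taken off and 1 with both trends taken off. It was 5 to 8 under the other 9 alternatives. Taking off the length trend gave 5, as did a minimum mean count of 50, at which fewer genes were tested. The 8 came from the ratio of TPM without a test, where the median gene tested was itself at a log2 of 1.24. Over all genes tested, 36.9% were called higher on TMM-scaled counts, 31.3% with the length trend, 12.4% with the GC trend and 10.5% with both trends taken off. No such share is given for the remaining alternatives, so their numbers cannot be set against the whole table. The 7 include Mmp11 and Timp1, and the 2 include Timp1, both tested only through library 2. The number lower was 1, against 2 with the GC trend and 2 with both trends taken off, 0 as a ratio of TPM and 0 at a 4-fold threshold. Of all genes, 28.1% were called lower on TMM-scaled counts, 11.0% with the GC trend and 11.5% with both trends taken off. With the GC trend taken off, Mmp28 (log2 -1.58), Timp2 (-1.53) and Mmp14 (-0.012) changed direction, and with both trends taken off, Mmp28 (-1.50) and Timp2 (-1.39) did. The fit with both trends, the TIMP to MMP ratios shifted by the GC trend, and those without Mmp15 or Timp3 were chosen after seeing the data. DESeq2 size factors and nuclear protein-coding library sizes changed no call among the 9 members.

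The mean TIMP sum was 95.9 TPM as deposited and 200.7 scaled to nuclear protein-coding TPM. Leaving out each library gave 7.60 to 160.8 TPM for the MMP sum, 78.7 to 113 TPM for the TIMP sum and 0.704 to 10.4 for summed TIMP over MMP. Depth limited Mmp7 in both libraries and Timp1, Mmp11, Mmp9 and Mmp15 in library 1, which had 2, 9, 13 and 16 counts there. No paired analysis was possible because there is 1 group. The labels give 1 biological replicate, so no value covers differences between mice.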
